A study of Mus musculus with 18 samples.

Results

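The 10 genes described here are the CDK inhibitors Cdkn1a, Cdkn1b, Cdkn1c, Cdkn2a, Cdkn2b, Cdkn2c and Cdkn2d and the retinoblastoma family genes Rb1, Rbl1 and Rbl2. They were taken by gene symbol, through the identifiers in the authors' deposited tables, from the 35275 genes measured in all 18 libraries, and all 10 were found. The libraries are poly(A) RNA-seq of C2C12, a mouse myoblast line whose cells can form myotubes in low serum, and the labels call this stock PAX7 NEG. The genotypes are wild-type (control), MUNC spliced overexpressing, called MUNC spliced here, and MUNC genomic overexpressing, called MUNC genomic. MUNC is a long noncoding RNA made upstream of Myod1. Its own level was not analysed here, so the overexpression named in the labels was not checked. Each genotype was sampled with 3 biological replicates in growth medium (GM, 20% FBS, about 80% confluent) and 3 after 3 days in 2% horse serum (DM3). The construct, its promoter, the vector carried by the control and the number of clones per line are not given in the sources used here. Nor do the labels say that biological replicates were separate cultures, so p-values measure the spread between these samples.

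As background, CDK inhibitors bind cyclin-dependent kinases or their cyclin complexes and hold back entry into S phase. The INK4 proteins (products of Cdkn2a to Cdkn2d) bind CDK4 and CDK6, while the Cip/Kip proteins (Cdkn1a, p21; Cdkn1b, p27; Cdkn1c, p57) bind cyclin-CDK complexes, CDK2 among them. Those kinases phosphorylate the pocket proteins RB (Rb1), p107 (Rbl1) and p130 (Rbl2), which in their unphosphorylated form bind E2F factors and repress S-phase genes. Withdrawal from the cell cycle precedes myotube formation, and p21, p57, RB and p130 are well known for their parts in it.

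The values are FPM, reads per gene scaled for library size by the authors and not divided by gene length. Libraries held 38416702 to 68788327 reads. Of the labelled cell type's own genes, Pax7 was at 0.147 FPM or less in all 18 libraries, Myf5 at 20.0 to 125 FPM, and Myod1 at 0.221 FPM or less in all 6 control libraries. With Des, Cdh15 and Itga7 added, these 6 myoblast genes summed to 276 to 384 FPM in control GM and 557 to 841 FPM in control DM3. Des, Itga7, Cdh15 and Myf5 were higher in control DM3 than in control GM (log2 changes 1.68, 1.46, 0.67 and 0.52, each adjusted p under 0.05, limma). Myod1 did not differ at that threshold (0.09). The summed level of 8 myotube genes (Myog, Myh3, Mymk, Mymx, Ckm, Acta1, Tnnt3 and Actn2) was 8.26 to 13.4 FPM in control DM3, against at most 31.5 FPM in control GM. Myog and Myh3 were near 0 in the control DM3 libraries, at 0.192 to 0.434 FPM and 0.375 to 0.497 FPM, and 2 of the 8 genes averaged 1 FPM or more there. Between control DM3 and GM, Tnnt3 was higher (log2 change 2.18, adjusted p = 0.00191, limma) and Acta1 lower (-1.93, adjusted p = 0.0102). Myog, Myh3, Mymk, Mymx and Ckm had an adjusted p over 0.05. In DM3 the sum of the 8 myotube genes was 155 to 832 FPM in MUNC spliced and 51.4 to 96.5 FPM in MUNC genomic cells. The MUNC spliced DM3 replicate 1 stood apart, with 832 FPM of myotube genes against 155 and 200.3 FPM in its group. Its sum over 7 proliferation genes (Mki67, Pcna, Mcm2, Mcm5, Top2a, Ccnb1 and Cdk1) was 1020 FPM, against 290.4 and 265 FPM. Tests and group orders that rest on this library are therefore given with and without it. Marker sums of other cell types were 6.47 to 50.2 FPM for fibroblasts (5 genes) and 0.063 to 3.32 FPM for adipocytes (4 genes). They were 0.0697 to 7.36 FPM for endothelium (3 genes), 0.854 to 5.53 FPM for macrophages (4 genes) and 0 to 15.5 FPM for neurons (3 genes). The higher endothelial and neuronal sums in MUNC genomic libraries were almost wholly Cdh5 and Syt1, and Thy1, Adgre1 and Rbfox3 were at or near 0 throughout. In bulk RNA, fewer cells of a type and less RNA per cell cannot be told apart.

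The first result is an absence. Cdkn2a, which encodes p16 and, from another reading frame, p19ARF, had 0 reads in all 18 libraries, and so did Cdkn2b, which encodes p15. A count of 0 allows up to 3 reads per library, which is at most 0.0757 FPM. Zero counts were common in the table, where 10382 of the listed genes (29.4%) had no read in any library. Both genes lie on chromosome 4 of GRCm38, Cdkn2a at 4:89274471-89294653 and Cdkn2b at 4:89306299-89311039, on the minus strand. With Gm12609, Gm12610 and Gm12608 they form a run of 5 listed genes at 0 that spans 170.2 kb. On one side of the run, Gm12606, 1.1 kb from Cdkn2a, had 454 reads in all and up to 1.33 FPM. Mtap, the methionine salvage enzyme gene 93.4 kb away on the same side, was expressed in every library at 165 to 419.7 FPM. On the other side, Dmrta1 had 1 read in total. Beyond Mtap on its side, the listed genes from Gm13283 to Gm13272 also had no read in any library. That run held more genes over a shorter stretch, so an unbroken run was not particular to Cdkn2a and Cdkn2b. A deleted locus and a silent one cannot be told apart from these counts.

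**Figure D1:**
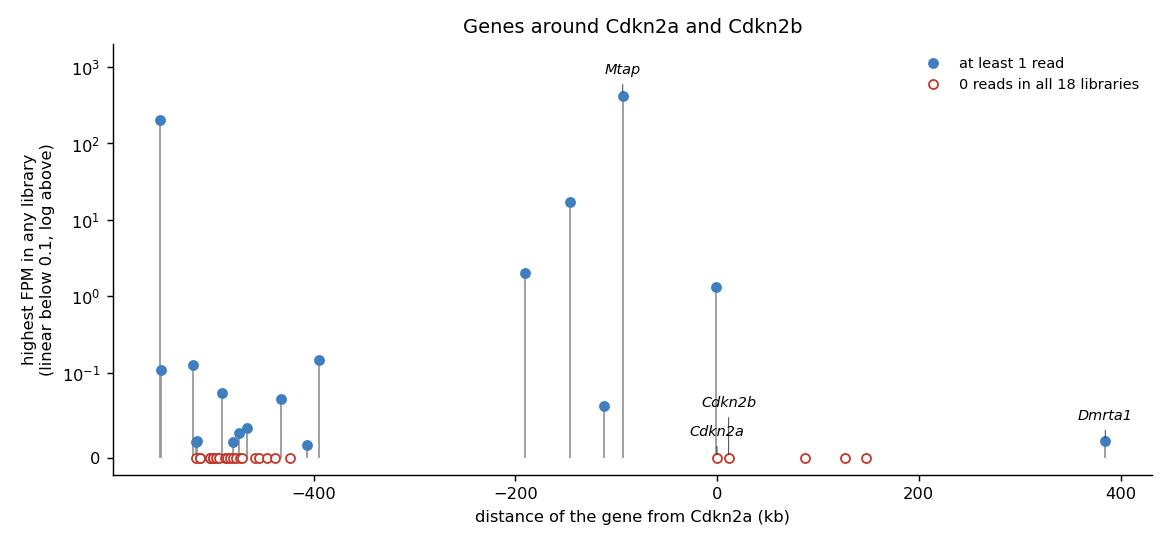
Highest FPM in any of the 18 libraries (y axis, linear below 0.1 and logarithmic above) for each listed gene, against its distance from Cdkn2a in kb (x axis). Open circles are genes with 0 reads in all libraries. Cdkn2a, Cdkn2b and 3 genes beyond them form an unbroken run, as do other genes beyond Mtap. Mtap, 93.4 kb away, reached 419.7 FPM.

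Cdkn1c, the imprinted gene of p57 at 7:143458339-143461050 on the minus strand, had 5 reads in 3 libraries. These were 3 reads in control GM replicate 2, 1 in MUNC genomic GM replicate 3 and 1 in MUNC genomic DM3 replicate 3. No MUNC spliced library and no control DM3 library had any. Its neighbours in the same imprinted region were measured: Nap1l4 at 92.2 to 165 FPM, Cd81 at 169 to 376 FPM and Kcnq1ot1, the antisense transcript of that region, at 3.25 to 10.2 FPM. Phlda2 was at 0.0183 FPM or less. Of 16 neighbours in the fixed list, 11 were tested in control DM3 against GM, and 3 were higher and 5 lower, where 29.6% and 28.6% of all tested genes were, with H19 changing most (log2 change 1.86, SE 0.55, adjusted p = 0.00891 by limma). Cdkn2a, Cdkn2b and Cdkn1c did not pass the filter on low values, which leaves 7 of the 10 genes in the tests.

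Control cells in DM3 were compared with control cells in GM to show how the family's levels differ after serum withdrawal. Cdkn1a and Cdkn1b rose, Cdkn2c and Cdkn2d fell, and of the pocket protein genes Rbl1 fell and Rbl2 rose. So 3 of the 7 tested genes were called higher, where 29.6% of all 13869 tested genes were, and 3 were called lower, where 28.6% were. A call is a Benjamini-Hochberg adjusted p under 0.05 in limma's test on log2(FPM + 1), fitted to all libraries. The log2 changes of the 7 genes ran from -1.92 (Rbl1) to 1.03 (Cdkn1a). Their median, 0.55, was the value of Rb1, which was not called, and does not describe a shared rise. Over all tested genes the median was 0.02.

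Among the Cip/Kip genes, Cdkn1a (17:29090976-29100727, plus strand), a target of p53 and of MyoD, was at 193, 177 and 163 FPM in control GM. It was at 359, 364 and 366 FPM in control DM3. The 3 DM3 libraries lay close together and far above the GM libraries. The means were 177 ± 14.9 FPM and 363 ± 3.49 FPM (SD, n = 3 each), and the log2 change was 1.03 (SE 0.27, adjusted p = 0.00322, limma). Cdkn1b (6:134920401-134925513, plus strand) was at 104, 97.9 and 69.5 FPM in control GM and at 194, 176 and 139.9 FPM in control DM3. Here too the groups did not overlap, and the log2 change was 0.91 (SE 0.19, adjusted p = 0.000774, limma). How many of all tested genes were free of overlap was not counted for any single comparison. Gaps were common, as 73% of all tested genes had at least 1 between groups next to each other in the order of the group means.

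The 2 detected INK4 genes moved the other way. Cdkn2c (4:109660876-109667189, minus strand), which encodes p18, was at 48.2, 44.6 and 37.9 FPM in control GM. In control DM3 it was at 15.2, 11.5 and 12.2 FPM, a log2 change of -1.68 (SE 0.26, adjusted p = 5.17e-05, limma). Cdkn2d (9:21288410-21291407, minus strand), which encodes p19INK4d, went from 32.9, 28.1 and 26.5 FPM to 16.7, 13.3 and 15.1 FPM. No DM3 library reached the level of a GM library for either gene, and the log2 change of Cdkn2d was -0.91 (SE 0.23, adjusted p = 0.0026, limma). Cdkn2c lies on the same chromosome as Cdkn2a and, unlike it, was read in every library.

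The pocket protein genes differed among themselves. Rbl1 (2:157145893-157204534, minus strand), whose protein p107 is known as the pocket protein of cycling cells, was at 78.6, 92.7 and 70.1 FPM in control GM. It was at 27.1, 19.9 and 15.5 FPM in control DM3, a log2 change of -1.92 (SE 0.25, adjusted p = 1.07e-05, limma). Rbl2 (8:91070057-91123844, plus strand), whose protein p130 is known as the pocket protein of quiescent cells, was at 38.5, 47.0 and 38.3 FPM in control GM. It reached 62.1, 72.6 and 63.1 FPM in control DM3 (log2 change 0.67, SE 0.13, adjusted p = 0.000292, limma). Neither gene's groups overlapped. Rb1 (14:73183673-73325822, minus strand) was at 58.2, 76.8 and 45.5 FPM in GM and at 81.3, 104 and 76.4 FPM in DM3, groups that overlap slightly. Its log2 change of 0.55 (SE 0.23) missed the threshold in limma (adjusted p = 0.0553) and passed it with the replicate number as a block (adjusted p = 0.00577), a fit that called 33.4% of all tested genes higher and 31.9% lower. The spread is shared by all libraries, and without MUNC spliced DM3 replicate 1 Rb1 was called higher too (SE 0.21, adjusted p = 0.0353, limma). That fit called 4188 of the 13869 tested genes higher and 4001 lower. In the authors' deposited table the log2 fold change of Rb1 was 0.51 with an adjusted p of 0.0449. Rb1 shares exonic bases on the opposite strand with Rcbtb2 and Lpar6, and Rbl2 with Aktip. Whether the counting used strand is not given in the sources used here.

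**Figure D2:**
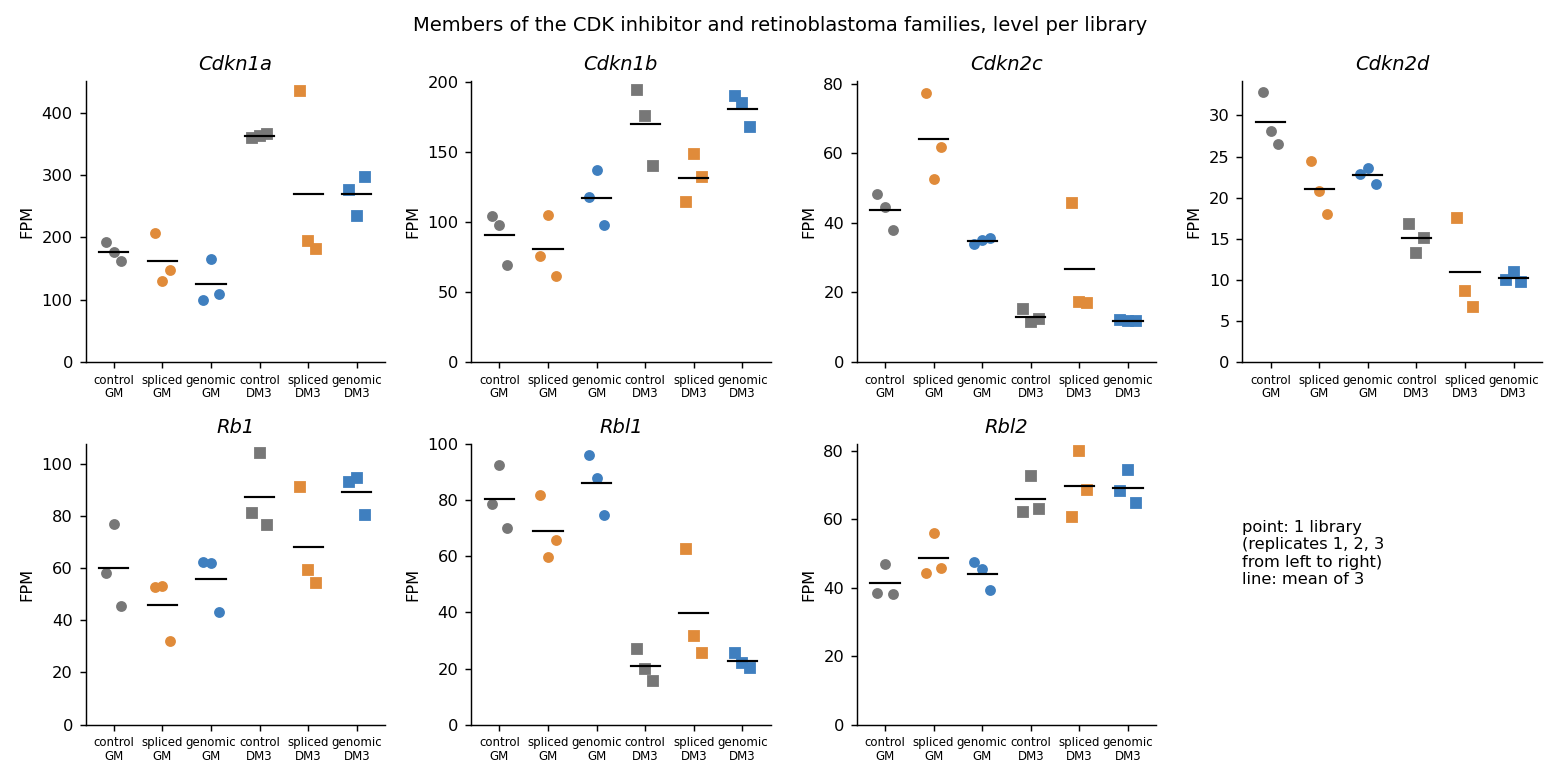
FPM (y axis, from 0) of the 7 detected genes in each of the 18 libraries, by group (x axis); points are libraries and lines are means of 3. Cdkn1a, Cdkn1b and Rbl2 lie higher and Cdkn2c, Cdkn2d and Rbl1 lower in the DM3 groups of control and MUNC genomic cells, while MUNC spliced DM3 replicate 1 sits apart for Cdkn1a (435 FPM), Cdkn2c (45.6 FPM) and Rbl1 (62.6 FPM).

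The stretches before the transcription starts of Rbl1 and Rbl2, which moved in opposite directions, and of Cdkn1b, which moved with Rbl2, are shown as RefSeq gives them on GRCm38.p6. They are the 120 bases before each start, at chr2:157204535-157204654 (minus strand) for Rbl1, chr8:91069937-91070056 (plus strand) for Rbl2 and chr6:134920281-134920400 (plus strand) for Cdkn1b. Capitals mark E2F-type letters in Rbl1, and a GC box and a CCAAT box in Cdkn1b.
Rbl1: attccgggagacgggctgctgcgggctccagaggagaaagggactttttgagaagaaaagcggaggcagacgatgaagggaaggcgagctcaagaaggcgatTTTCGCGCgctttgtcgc
Rbl2: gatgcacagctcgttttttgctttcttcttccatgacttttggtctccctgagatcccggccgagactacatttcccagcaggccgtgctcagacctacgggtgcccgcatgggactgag
Cdkn1b: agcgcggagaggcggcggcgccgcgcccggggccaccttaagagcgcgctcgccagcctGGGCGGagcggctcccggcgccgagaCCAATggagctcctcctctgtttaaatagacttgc

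Windows of 300 bases around the start, 250 before it and 50 after, were found for 8 of the 10 genes (11 windows). They were searched on both strands for the E2F-type letters TTTCCCGC, TTTCGCGC, TTTGCCGC or TTTGGCGC. These letters were in 2 of the 11 windows, one of Rbl1 and one of Cdkn2a, and in 2.26% of all 32851 windows of that length. The Rbl1 match begins 18 bases before the start. GGGCGG, a GC box, was in 9 of the 11 and in 35.7% of all windows, and CCAAT in 4 and 37.4%. E-box letters, CAGCTG or CACGTG, were in 3 of the 11 and in 22.2% of all. The CHR letters TTTGAA were in 2 of the 11, those of Rbl2 and Cdkn2b, and in 17.9% of all. A match is a description of these letters only.

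Levels of different genes were set side by side after division by the length of their merged exons, as FPM per kb. Merged exons take in all annotated isoforms, so this length can differ from that of the expressed transcript. With the strand setting not known, reads of the genes that overlap Rb1 and Rbl2 may also be counted. Rankings between genes are therefore approximate. On that scale Rbl1 held 44.9% to 48.1% of the summed pocket protein level in the 3 control GM libraries and 10.9% to 17.2% in control DM3. Rb1 held 31.1% to 37.1% and then 51.5% to 57.2%, and Rbl2 18.0% to 20.8% and then 31.3% to 35.3%. Rbl1 was the most abundant of the 3 in each control GM library and the least abundant in each control DM3 library. The ratio of Rbl1 to Rbl2 on this scale was 2.46 ± 0.14 in control GM and 0.402 ± 0.13 in control DM3 (SD, n = 3 each). Among the 4 detected inhibitors, Cdkn1a held 47.8% ± 1.7 of the summed FPM per kb in control GM and 66.5% ± 3.3 in control DM3. Cdkn2c went from 15.5% ± 0.19 to 3.13% ± 0.38 of that sum, and Cdkn2d from 17.7% ± 0.73 to 6.2% ± 0.63 (SD, n = 3).

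**Figure D3:**
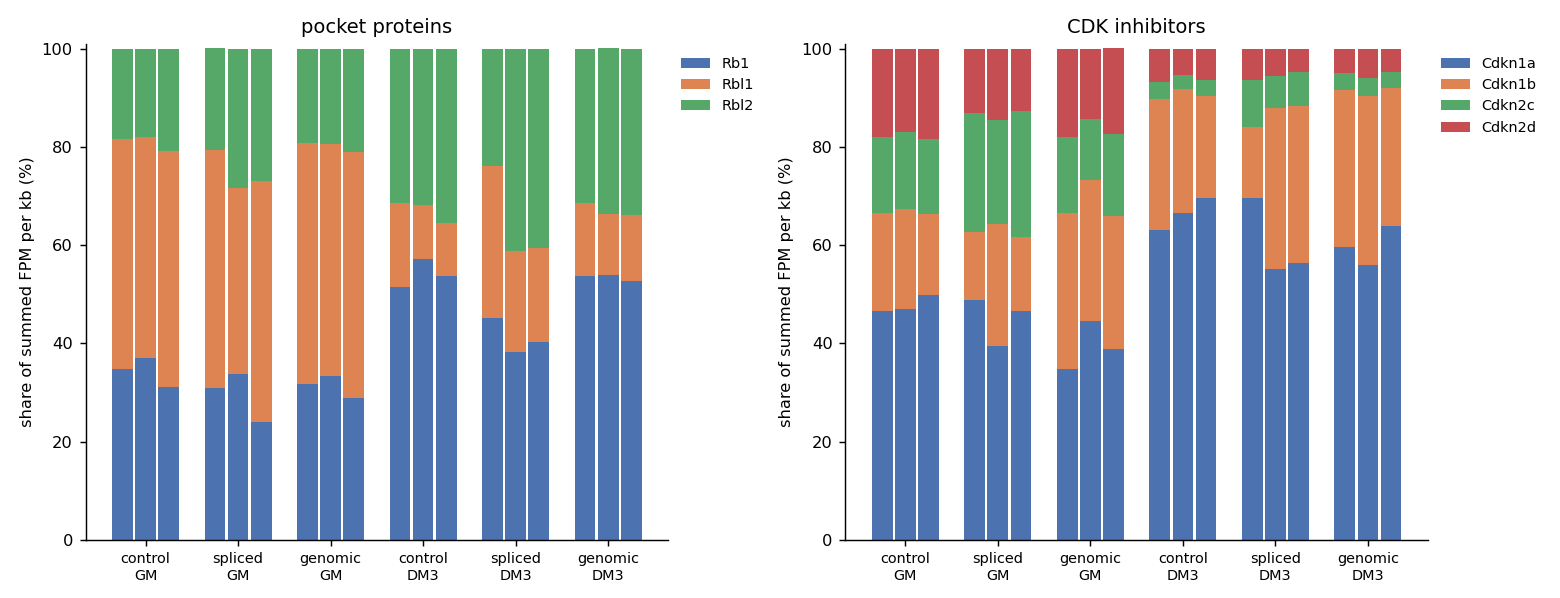
Share of the summed FPM per kb (y axis, %) held by each pocket protein gene (left) and by each of the 4 detected CDK inhibitor genes (right), with 1 bar per library and 3 bars per group (x axis). Rbl1 takes 44.9% to 48.1% in control GM and 10.9% to 17.2% in control DM3, and MUNC spliced DM3 replicate 1 keeps 31.0%.

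The kinases, cyclins and E2F factors around these genes were read from fixed lists in the same comparison. D cyclins and their kinases gave 1 higher and 3 lower of 5, with a median log2 change of -0.66. Ccnd1, the cyclin that INK4 proteins displace from CDK4, fell most (log2 change -1.98, SE 0.26, adjusted p = 1.13e-05, limma), while Ccnd2 rose (0.50, SE 0.17, adjusted p = 0.0214). All 5 genes of the cyclin E/A and CDK2 list fell (median -2.31), and Ccne2 fell by 4.03 on the log2 scale, the most. Of 10 E2F and DP genes 1 rose and 6 fell (median -0.79). The repressor E2f7 fell most (log2 change -3.93), E2f1 fell by 1.06 on the log2 scale, and Tfdp2 rose (0.80). The MuvB and DREAM list, whose complex joins p130 or p107 to E2F4, gave 5 lower and none higher of 7 (median -1.53). Its largest change was in Mybl2 (-4.12), which replaces the pocket protein in that complex in cycling cells. All 7 proliferation genes fell (median -3.22), and Mcm5 fell most (-4.87). Over all tested genes the median was 0.02, with 29.6% called higher and 28.6% lower.

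The next list counts stand beside 29.6% higher and 28.6% lower over all tested genes in the same comparison. Of 10 genes for the turnover of inhibitors, 2 rose and 6 fell (median -0.34). Skp2 and Cks1b, which target p27 for degradation, fell by 1.89 and 2.47 on the log2 scale, Dtl, which targets p21, fell most (-3.02), and Rnf123, a ubiquitin ligase for p27, rose (0.93). Of 13 tested regulators of inhibitor genes 5 rose and 3 fell (median 0.04). Foxo3, known to activate Cdkn1b, rose (1.68), as did Smad3 (1.15), while Trp53, the activator of Cdkn1a, fell by 1.01 and Myc by 1.55. Ezh2, the Polycomb methyltransferase known to keep Cdkn2a silent, changed most (-2.05). Of 8 corepressor genes that work with pocket proteins, 2 rose and 5 fell (median -0.44), Suv39h1 most (-1.80). The list of neighbours of Cdkn2a and Cdkn2b held 3 tested genes of 5, with Mtap lower (-1.05), Elavl2 higher (0.52) and Klhl9 not called.

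In MUNC spliced cells, DM3 was compared with GM in the same way. Cdkn1b and Rbl2 rose, and Cdkn2c, Cdkn2d and Rbl1 fell: 2 of 7 genes called higher, where 17.2% of all tested genes were, and 3 called lower, where 18.4% were. Cdkn1b was at 75.5, 105 and 61.4 FPM in GM and 115, 149 and 132 FPM in DM3 (log2 change 0.73, SE 0.19, adjusted p = 0.00807, limma). Rbl2 was at 44.4, 56.0 and 45.8 FPM and then at 60.8, 80.1 and 68.5 FPM (log2 change 0.51, SE 0.13, adjusted p = 0.00532). Both genes were higher in every DM3 library than in any GM library, which was not counted over all tested genes. The limma test of this comparison called 35.6% of all tested genes.

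Replicate 1 of MUNC spliced DM3 set the values of the other genes apart. Cdkn2c was at 77.5, 52.7 and 61.9 FPM in GM and at 45.6, 17.3 and 16.9 FPM in DM3. Its log2 change was -1.37 (SE 0.26, adjusted p = 0.000863, limma), and -1.83 without replicate 1. Cdkn2d was at 24.5, 20.8 and 18.0 FPM and then at 17.5, 8.61 and 6.71 FPM, a log2 change of -0.98 (SE 0.23, adjusted p = 0.00343), and -1.35 without replicate 1. Rbl1 was at 81.8, 59.6 and 65.8 FPM in GM and at 62.6, 31.6 and 25.6 FPM in DM3, where replicate 1 lay within the GM range. The log2 change of Rbl1 was -0.87 (SE 0.25, adjusted p = 0.0145, limma), and -1.24 (adjusted p = 0.000199) without that library. It missed the threshold without MUNC spliced GM replicate 1 (-0.74), DM3 replicate 2 (-0.76) or DM3 replicate 3 (-0.61). The log2 change of Cdkn1b also missed it without GM replicate 3 (0.55, adjusted p = 0.0553).

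Cdkn1a was not called in this line, at 207, 129.8 and 148 FPM in GM and 435, 195 and 181 FPM in DM3. Its log2 change was 0.65 (SE 0.27, adjusted p = 0.0679, limma), and 0.24 (adjusted p = 0.356) without replicate 1 of DM3. On the recovered reads it passed the threshold in edgeR (log2 change 0.76, adjusted p = 0.0425) and in DESeq2 (0.78, adjusted p = 0.0184). Rb1, at 52.7, 53.1 and 32.2 FPM and then 91.3, 59.3 and 54.1 FPM, was not called by limma either (log2 change 0.56, SE 0.23, adjusted p = 0.075). Without replicate 1 of DM3 the log2 change of Rb1 was 0.33 (adjusted p = 0.288).

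In MUNC genomic cells all 7 tested genes were called between DM3 and GM. Higher were 4 of 7, where 26.3% of all tested genes were, and lower were 3, where 25.1% were. Cdkn1a was at 100.2, 166 and 109 FPM in GM and at 277, 234 and 298 FPM in DM3 (log2 change 1.13, SE 0.27, adjusted p = 0.00206, limma). Cdkn1b went from 118, 137 and 97.5 FPM to 190.0, 185 and 168 FPM (0.63, SE 0.19, adjusted p = 0.0118). Both Cip/Kip genes were higher in each DM3 library than in any GM library, which was not counted over all tested genes. The limma test of this comparison called 51.4% of all tested genes. Cdkn2c was at 33.9, 35.0 and 35.7 FPM and then at 12.1, 11.7 and 11.9 FPM, the closest replicates of any group for this gene (log2 change -1.48, SE 0.26, adjusted p = 0.000221). Cdkn2d went from 22.9, 23.6 and 21.7 FPM to 9.95, 10.9 and 9.68 FPM (-1.09, SE 0.23, adjusted p = 0.000858).

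Rbl1 in MUNC genomic cells was at 96.2, 88.1 and 74.6 FPM in GM and at 25.5, 21.9 and 20.4 FPM in DM3 (log2 change -1.89, SE 0.25, adjusted p = 1.9e-05, limma). Rbl2 was at 47.4, 45.6 and 39.5 FPM and then at 68.2, 74.4 and 64.7 FPM (0.64, SE 0.13, adjusted p = 0.000553). Rb1 rose from 62.3, 62.2 and 43.2 FPM to 93.1, 94.7 and 80.3 FPM (0.68, SE 0.23, adjusted p = 0.0225). The summed fibroblast markers also moved in this line, from 19.2 to 28.6 FPM in GM to 47.3 to 50.2 FPM in DM3, against 12.4 to 22.3 FPM in control DM3. Of these markers Lum and Pi16 rose (log2 changes 3.05 and 3.12), Pdgfra (0.12) and Dpt (-0.235) were not called, and Thy1 stayed at or near 0. The part of the fibroblast markers in these results was not tested. The call on Rb1 was lost without GM replicate 3 (log2 change 0.51, adjusted p = 0.114) and without DM3 replicate 1 (0.65, adjusted p = 0.0599) or 2 (0.64, adjusted p = 0.0666). That on Cdkn1b was lost without GM replicate 3 (0.51, adjusted p = 0.0629). The ratio of Rbl1 to Rbl2 in FPM per kb was 2.46 ± 0.089 in MUNC genomic GM and 0.413 ± 0.052 in MUNC genomic DM3 (SD, n = 3 each). In MUNC spliced cells it was 1.83 ± 0.49 and 0.755 ± 0.47, with 1.30 in DM3 replicate 1 against 0.497 and 0.470.

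**Figure D4:**
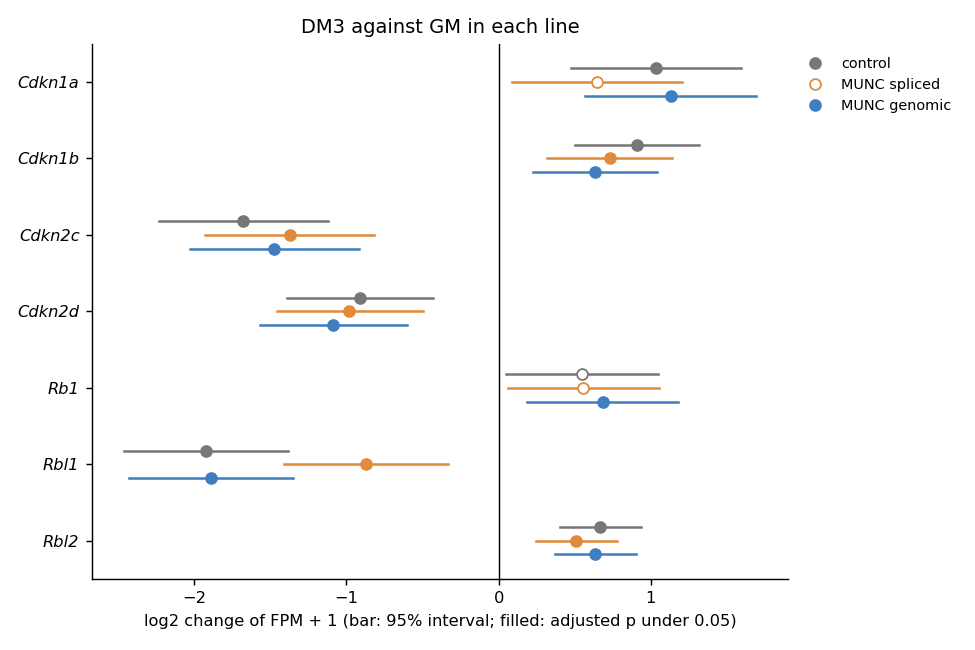
Log2 change of FPM + 1 between DM3 and GM (x axis) for the 7 detected genes (y axis) in control, MUNC spliced and MUNC genomic cells; bars are 95% intervals from limma and filled points have an adjusted p under 0.05. The intervals of Rbl1 are -2.46 to -1.38 in control and -1.41 to -0.33 in MUNC spliced cells.

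The interaction terms ask whether a MUNC line's change from GM to DM3 differed from the control's. For MUNC spliced, 0 of the 7 genes were called by limma, where 7.43% of all tested genes were called higher and 6.94% lower. Under equal library sums the split of called genes went from 1030 higher and 963 lower to 802 and 1133. The largest term was that of Rbl1 at 1.05 (SE 0.36, 95% interval 0.29 to 1.82), with an unadjusted p of 0.00977 and an adjusted p of 0.0603. It was called by edgeR (1.21, adjusted p = 0.0452) and DESeq2 (1.17, adjusted p = 0.0212), which each called 1 of the 7. Without MUNC spliced DM3 replicate 1 the term of Rbl1 was 0.68 (adjusted p = 0.118, limma). The largest was then that of Cdkn1a at -0.79 (SE 0.27, adjusted p = 0.0702), against -0.39 with all libraries, and neither was called. The Rbl1 term was called by limma without control DM3 replicate 1 (1.25, adjusted p = 0.0293) and without MUNC spliced DM3 replicate 3 (1.31, adjusted p = 0.0205). For MUNC genomic, 0 of the 7 were called, where 3.56% of all tested genes were called higher and 5.25% lower. The terms ran from -0.28 for Cdkn1b to 0.20 for Cdkn2c, and edgeR and DESeq2 called 0 there too. No gene of the 7 had an unadjusted p under 0.05 in that comparison, and Rbl1 alone had one for MUNC spliced. The interval for Rbl1 was -0.73 to 0.80 in MUNC genomic cells, which allows differences of either sign.

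In GM both MUNC lines were compared with the same 3 control libraries. For MUNC spliced 0 of 7 genes were called, where 18.2% of all tested genes were higher and 17.3% lower. The count of calls over all genes was 2530 higher and 2399 lower, and 3241 and 1658 under equal library sums, a scaling that moved the median of all genes by 0.11 on the log2 scale. The largest differences were those of Cdkn2c (0.54, SE 0.26, 95% interval -0.02 to 1.09, adjusted p = 0.124, limma) and Cdkn2d (-0.46, SE 0.23, adjusted p = 0.13). Cdkn2c was 64.0 ± 12.5 FPM in MUNC spliced and 43.6 ± 5.23 FPM in control GM (SD, n = 3), groups that do not overlap, and Cdkn2d 21.1 ± 3.26 and 29.2 ± 3.32 FPM. The spread is shared by all libraries, and without MUNC spliced DM3 replicate 1 both passed the threshold, Cdkn2c higher (SE 0.14, adjusted p = 0.00651) and Cdkn2d lower (SE 0.14, adjusted p = 0.0162). That fit called 19.1% of all tested genes higher and 18.6% lower. In the authors' deposited table Cdkn2c had a log2 fold change of 0.56 and an adjusted p of 0.0246 there. With the replicate block only Rbl2 was called, higher by 0.23 (SE 0.08, adjusted p = 0.029), where 22.8% of all tested genes were higher and 23.7% lower.

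For MUNC genomic in GM 0 of 7 genes were called as well, where 12.2% of all tested genes were higher and 14.5% lower. The split of all calls was 1694 higher and 2017 lower, and 2049 and 1598 under equal library sums. Cdkn1a differed by -0.53 (SE 0.26, adjusted p = 0.154, limma), and its call passed without MUNC spliced DM3 replicate 1 (adjusted p = 0.0351), where 12.9% of all tested genes were higher and 15.4% lower. Cdkn1b differed by 0.38 (SE 0.19, adjusted p = 0.164), and by the same value with the replicate block, where it was called (SE 0.13, adjusted p = 0.0368) along with 16.7% of all tested genes higher and 20.7% lower. The intervals of Rb1 (-0.59 to 0.40) and Rbl1 (-0.44 to 0.64) include no difference. In both comparisons 0 of the 7 had an unadjusted p under 0.05 in limma, and edgeR and DESeq2 called 0.

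In DM3 the MUNC lines were again compared with 1 set of 3 control libraries. MUNC spliced had 2 of 7 genes higher, where 22.3% of all tested genes were, and 0 lower, where 21% were. Cdkn2c was 26.6 ± 16.4 FPM in MUNC spliced and 13.0 ± 1.97 FPM in control DM3 (SD, n = 3), and its log2 difference was 0.84 (SE 0.26, adjusted p = 0.0165, limma). Rbl1 was 39.9 ± 19.9 and 20.8 ± 5.84 FPM, a log2 difference of 0.83 (SE 0.25, adjusted p = 0.0144). Both differences rest largely on MUNC spliced DM3 replicate 1. Without it Cdkn2c differed by 0.38 (adjusted p = 0.0589) and Rbl1 by 0.46 (adjusted p = 0.0818), and neither was called. The calls were also lost without control DM3 replicate 3 (Cdkn2c 0.80, adjusted p = 0.0502; Rbl1 0.65, adjusted p = 0.0789), and that on Cdkn2c without control DM3 replicate 2 (0.76, adjusted p = 0.0609).

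Without replicate 1 of MUNC spliced DM3, 2 other genes of the 7 were called lower than in control DM3, where 18.7% of all tested genes were, and 0 higher, where 19.7% were. Cdkn1a differed by -0.95 (SE 0.20, adjusted p = 0.00145, limma), against -0.55 (adjusted p = 0.108) with all libraries, and Cdkn2d by -0.89 (SE 0.15, adjusted p = 0.000282), against -0.52 (unadjusted p = 0.0348, adjusted p = 0.0738), the 1 gene lower at an unadjusted p under 0.05. With all libraries edgeR and DESeq2 called 0 genes lower. Cdkn1a was at 435 FPM in that replicate, above every control DM3 library, and at 195 and 181 FPM in the other 2, below all of them. With the replicate block 4 genes were called: Cdkn2c and Rbl1 higher, Cdkn2d lower and Cdkn1b lower (-0.36, SE 0.13, adjusted p = 0.0334). The same fit called 27.1% of all tested genes higher and 26.2% lower, 53.3% in all, so 4 of 7 is near the general rate. The proliferation and myotube genes moved with these values, at 1020 and 832 FPM in replicate 1, and their part in the result was not tested.

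For MUNC genomic against control in DM3, 0 of 7 genes were called by limma, where 19.3% of all tested genes were higher and 20.9% lower. Cdkn2d was 10.2 ± 0.652 FPM against 15.0 ± 1.74 FPM in control (SD, n = 3), with no overlap, and differed by -0.52 (SE 0.23, adjusted p = 0.0819). It alone of the 7 had an unadjusted p under 0.05 (0.0371), and edgeR and DESeq2 called 0. Cdkn2d was called with the replicate block (adjusted p = 0.034) and without MUNC spliced DM3 replicate 1 (adjusted p = 0.00654). With the block 24.5% of all tested genes were higher and 26% lower, and without that library 20.1% and 21.9%. A fit to these 6 libraries alone called Cdkn2d (adjusted p = 0.0107) and Cdkn1a (-0.44, adjusted p = 0.0101) lower. In the authors' deposited table the log2 fold changes were -0.41 for Cdkn1a (adjusted p = 0.0023) and -0.54 for Cdkn2d (adjusted p = 0.000945). Cdkn1a was 269.6 ± 32.6 FPM in MUNC genomic and 363 ± 3.49 FPM in control DM3. The 95% intervals of the difference were -0.66 to 0.45 for Cdkn2c, -0.40 to 0.68 for Rbl1 and -0.20 to 0.33 for Rbl2.

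**Figure D5:**
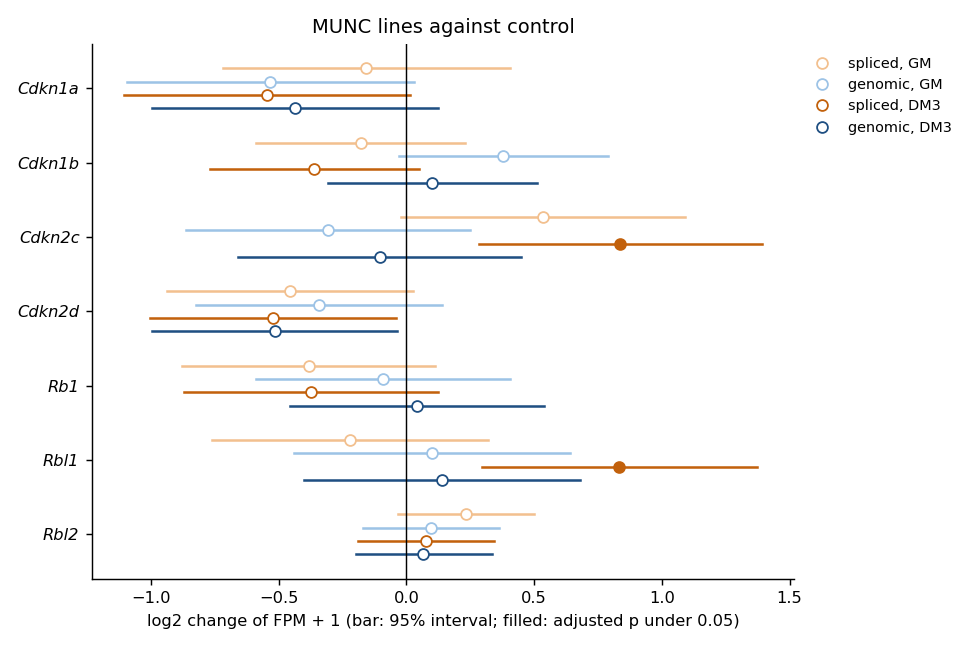
Log2 difference of FPM + 1 between each MUNC line and control (x axis) for the 7 detected genes (y axis), in GM and in DM3; bars are 95% intervals from limma and filled points have an adjusted p under 0.05. Filled are Cdkn2c (0.84) and Rbl1 (0.83) in MUNC spliced DM3, and both depend on replicate 1 of that group.

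The MUNC lines were also compared with each other. In GM, 1 of 7 genes was higher in MUNC spliced, where 19.9% of all tested genes were, and 1 was lower, where 16% were. Cdkn2c was higher by 0.84 (SE 0.26, adjusted p = 0.0194, limma), at 52.7 to 77.5 FPM against 33.9 to 35.7 FPM. Cdkn1b was lower by a log2 difference of -0.56 (SE 0.19, adjusted p = 0.0328), at 61.4 to 105 FPM against 97.5 to 137 FPM, groups that overlap. With the replicate block both genes were called too, in a fit that called 47% of all tested genes. Cdkn2c then had an adjusted p of 0.00612 (SE 0.22, limma) and Cdkn1b one of 0.00345 (SE 0.13). Cdkn1b was lower in each MUNC spliced GM library than in the same-numbered MUNC genomic GM library. Without the block, leaving out MUNC spliced GM replicate 1 or MUNC genomic GM replicate 1 ended both calls. For Cdkn2c the difference was then 0.70 (adjusted p = 0.0831) and 0.82 (adjusted p = 0.0536). For Cdkn1b it was -0.53 (adjusted p = 0.0842) and -0.55 (adjusted p = 0.0775), and its call also ended without MUNC spliced GM replicate 3 (-0.38, adjusted p = 0.154) or MUNC genomic GM replicate 2 (-0.44, adjusted p = 0.126). In DM3, 2 of 7 genes were higher in MUNC spliced, where 23.4% of all tested genes were, and 0 lower by limma, where 20.8% were. Cdkn1b had an unadjusted p of 0.0288 there (log2 difference -0.46, adjusted p = 0.0616) and was called lower by DESeq2 (-0.48, adjusted p = 0.0477), while edgeR called 0 lower. Cdkn2c was higher by 0.94 (SE 0.26, adjusted p = 0.00794) and Rbl1 by 0.70 (SE 0.25, adjusted p = 0.0359). Without MUNC spliced DM3 replicate 1 the difference was 0.49 for Cdkn2c (adjusted p = 0.0187) and 0.33 for Rbl1 (adjusted p = 0.216), and Rb1 was called lower (-0.64, adjusted p = 0.04), where 21.1% of all tested genes were higher and 18.7% lower. Without MUNC genomic DM3 replicate 2 or 3 the call on Rbl1 was lost too (0.68, adjusted p = 0.0839, and 0.63, adjusted p = 0.104).

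The D cyclin list gave 0 higher and 2 lower of 5 in MUNC spliced against control GM (median -0.05, all tested genes -0.02), and 1 higher and 1 lower in MUNC genomic (median -0.07, all tested genes -0.03). The regulators of inhibitor genes gave 3 higher and 2 lower of 13 and then 2 higher and 1 lower, with medians of 0.09 and 0.17. Of all tested genes 18.2% were higher and 17.3% lower in MUNC spliced GM, and 12.2% and 14.5% in MUNC genomic GM. Ccnd2, Klf4 and Trp53 from these lists were chosen after their values were seen. Ccnd2 separated the lines. It was at 89.4, 129 and 105 FPM in control GM, while the MUNC spliced GM libraries held 11.4, 14.1 and 18.1 FPM and the MUNC genomic GM libraries 224, 232 and 252 FPM. The difference from control was -2.81 (SE 0.17, adjusted p = 4.2e-09, limma) for MUNC spliced and 1.14 (SE 0.17, adjusted p = 0.000128) for MUNC genomic, against the same controls. Klf4, a known activator of Cdkn1a, was at 45.9 ± 3.88 FPM in control, 144 ± 30.0 FPM in MUNC spliced and 28.1 ± 3.05 FPM in MUNC genomic cells in GM (SD, n = 3 each). Its difference from control was 1.61 (SE 0.21, adjusted p = 3.09e-05) and -0.69 (SE 0.21, adjusted p = 0.0252). Trp53 was lower in MUNC spliced GM (-0.65, adjusted p = 0.000882).

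The order of the group means was described for each gene, with neighbours in that order called separate where their libraries did not overlap. Of all 13869 tested genes 73% had at least 1 separate pair of neighbours, and 78.3% without MUNC spliced DM3 replicate 1, so such gaps are common. For Cdkn1a the order was control DM3, MUNC spliced DM3, MUNC genomic DM3, control GM, MUNC spliced GM and MUNC genomic GM, and the libraries separated between MUNC genomic DM3 and control GM. Without replicate 1 the MUNC spliced DM3 mean was 188 FPM, below MUNC genomic DM3 (269.6 FPM) and overlapping control GM (177 FPM). Control DM3, MUNC genomic DM3 and MUNC spliced DM3 were then each separate from the next. Cdkn1b, from MUNC genomic DM3 down to MUNC spliced GM, and Rb1 had no separate neighbours, with or without that library.

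Cdkn2c ran from MUNC spliced GM through control GM and MUNC genomic GM to the 3 DM3 groups, with MUNC spliced DM3 the highest of those. Neighbours overlapped between MUNC genomic GM and MUNC spliced DM3 and between control DM3 and MUNC genomic DM3, and without replicate 1 only between the latter. Cdkn2d was highest in control GM, which was separate from MUNC genomic GM, and MUNC spliced GM was separate from control DM3. Without replicate 1 its 3 DM3 groups were separate too, in the order control, MUNC genomic and MUNC spliced (15.0, 10.2 and 7.66 FPM). Rbl1 was separate between MUNC spliced DM3 and MUNC genomic DM3, and without replicate 1 also between MUNC spliced GM and MUNC spliced DM3 (69.1 and 28.6 FPM). Rbl2 was separate between control DM3 and MUNC spliced GM, with or without that library, so its DM3 groups stood above its GM groups.

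Correlations over the 18 libraries, which share the GM to DM3 difference in all 3 lines, are given as a description on log2(FPM + 1). With Mki67, a marker of cycling cells, Pearson's r was 0.936 for Rbl1, 0.892 for Cdkn2d and 0.858 for Cdkn2c. It was -0.925 for Rbl2, -0.753 for Cdkn1b, -0.651 for Cdkn1a and -0.566 for Rb1. Among the 11028 genes at 5 FPM or more in a group, the nearest in pattern to Rbl1 were Blm, a DNA helicase (r = 0.987), and Cenpq, a kinetochore gene (r = 0.987). Nearest to Cdkn2c were Eldr (0.971) and Rad54b, a recombination gene (0.965), and nearest to Cdkn2d Brip1os (0.968) and Piga (0.966). For Cdkn1b they were Crbn (0.962) and Kat2b, an acetyltransferase (0.960), and for Rbl2 Zfp266 (0.976) and Gpr146 (0.972). Cdkn1a had less close neighbours, Jsrp1, a sarcoplasmic reticulum gene (0.888), and Cfl2, the muscle cofilin (0.883), and Rb1 had Cald1 (0.917) and Fam134b (0.906). Within the 7 genes, r was highest between Cdkn2c and Rbl1 (0.907) and lowest between Cdkn2d and Rbl2 (-0.872).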

How the data were processed

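Poly(A) RNA from 18 C2C12 libraries, 6 groups of 3, was sequenced on an Illumina instrument. Groups follow the sample titles, with which the source names disagree in 9 of 18 samples. The gene-level signal (FPM) was deposited by the authors, who list STAR, HTSeq, DESeq2 and mm10 per the submitters' processing notes. Their roles, versions and strand setting are not given in the sources used here. One label calls the values fpkm, but their steps are the same for every gene of a library, and whole reads were recovered for 100% of values to within 0.05 of a read. The library sums were 946834 to 1048477 FPM. The deposited tables of the authors also hold log2 fold changes, p-values and a score (the test statistic), per the file headers. The scores were not used.

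The 13869 genes that reached 0.5 FPM in 3 libraries entered the main test, limma (version 3.58.1, under R 4.3.3) on values of log2(FPM + 1), a scale that understates changes of low genes, over all 18 libraries, with trended variance and Benjamini-Hochberg adjustment over all tested genes. edgeR 4.0.16 and DESeq2 1.42.0 on recovered reads, other pseudocounts, filters and scalings, the compared groups alone, a replicate block and leaving out each library were alternatives. The script was tested on simulated data. The members and gene lists were chosen with earlier results of these data known. Named genes are the members, the called gene with the largest change in control DM3 against GM in each pathway list, other listed genes where their group is described, Myod1, Myog, Myh3 and Mki67 as context, and the 2 genes nearest each tested member in pattern among those averaging 5 FPM or more in a group. Same-numbered libraries deviated together in 6 of the 9 compared pairs of groups (every r of the deviations over 0.1, from 0.171 to 0.727), which was taken as pairing there. This was not so for MUNC spliced DM3 against GM, MUNC genomic DM3 against GM or the MUNC lines in DM3. Intervals and the floor of 3 reads cover counting or replicate error only.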

Additional observations from a re-analysis of the deposited data

How the results depend on the processing

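With other pseudocounts (0.1 and 0.5) or a filter of 5 FPM no call on the 7 genes changed. Counts of called genes among the 7 that moved were as follows. With only the compared groups fitted there were 3 for MUNC spliced DM3 against GM, 0 for MUNC spliced and 2 for MUNC genomic against control in DM3, and 1 for the MUNC lines against each other in GM and 1 in DM3. Of all tested genes 22%, 39.2%, 46.8%, 29% and 44.3% were then called in these comparisons. Over all genes the first count was then 3046 (4933 with all groups) and that of the MUNC spliced interaction 1214 (1993). With the replicate block 1 of the 7 was called for MUNC spliced against control in GM, 1 for MUNC genomic there, 4 for MUNC spliced and 1 for MUNC genomic against control in DM3, 4 between the MUNC lines in DM3 and 1 for the MUNC spliced interaction. Of all tested genes the block called 46.6%, 37.4%, 53.3%, 50.5%, 54.6% and 27.9% in these comparisons, in the same order. The block gave 3868 genes for that interaction and 2265 (1222 without it) for the MUNC genomic one. In control DM3 against GM the block added Rb1 (adjusted p = 0.00577, limma), where it called 65.3% of all tested genes. In MUNC spliced DM3 against GM it added Rb1 as well (adjusted p = 0.00852), and the interaction of Rbl1 was called (adjusted p = 0.00842). Where same-numbered libraries did not deviate together, the block is only a setting. Without a filter the MUNC lines differed in 1 gene in GM and 1 in DM3, and under equal sums or quantile normalization in 1 in GM. For the MUNC spliced interaction edgeR and DESeq2 called 1 each, and edgeR called 777 genes for the MUNC genomic one. The cause was not tested.

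Signs that turned belonged to values that were not called. Between the MUNC lines in DM3, Cdkn2d was 0.007 under equal sums, 0.096 in edgeR and 0.082 in DESeq2, and Rbl2 was -0.025 under quantile, -0.019 under TMM and -0.007 in DESeq2. In the MUNC spliced interaction Cdkn2d was 0.070 in edgeR and 0.029 in DESeq2, and Rb1 -0.057 under equal sums. In the MUNC genomic interaction Rbl1 was -0.0004 under equal sums.

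Leaving out 1 library at a time gave 0 to 2 calls among the 7 for MUNC spliced against control in GM, 0 to 1 for MUNC genomic there, 0 to 2 and 0 to 1 for the same in DM3, 0 to 2 between the MUNC lines in GM, 1 to 3 in DM3 and 0 to 1 for the MUNC spliced interaction. All-gene calls were 1063 to 2434 for the MUNC spliced and 784 to 1372 for the MUNC genomic interaction. Values that changed sign were, for MUNC genomic against control in GM, Rb1 (-0.275 to 0.097). For MUNC spliced against control in DM3 it was Rbl2 (-0.026 to 0.169). For MUNC genomic against control in DM3 they were Cdkn1b (-0.031 to 0.203), Cdkn2c (-0.183 to 0.006), Rb1 (-0.045 to 0.176) and Rbl1 (-0.046 to 0.337). Between the MUNC lines in DM3 they were Cdkn1a (-0.512 to 0.117), Cdkn2d (-0.376 to 0.257) and Rbl2 (-0.094 to 0.101). In the MUNC spliced interaction they were Cdkn1b (-0.358 to 0.023), Cdkn2c (-0.151 to 0.540), Cdkn2d (-0.436 to 0.197) and Rb1 (-0.224 to 0.190). In the MUNC genomic interaction they were Cdkn1a (-0.045 to 0.317), Rb1 (-0.054 to 0.318), Rbl1 (-0.148 to 0.236) and Rbl2 (-0.124 to 0.040). Cdkn2a, Cdkn2b and Cdkn1c lie at or under the floor of 3 reads, so differences between groups were not detectable at this depth. The order of the group means without MUNC spliced DM3 replicate 1 was added after seeing the data.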
